A study of Mus musculus with 4 samples.

Results

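Complement genes were followed in the contused spinal cord of mice that carry human ApoE3 or human ApoE4. The 9 genes described are C1QA, C1QB and C1QC, which encode the chains of C1q, C4B and C3, which encode the C4 and C3 proteins, CFP (properdin), the C1 inhibitor gene SERPING1, and the anaphylatoxin receptor genes C3AR1 and C5AR1. They were taken by name as components and receptors of the complement system, with earlier results of these data known. All 9 were listed at both time points, among 14718 genes listed at either one. RNA was sequenced from the lesion segment of male targeted replacement mice aged 3 to 5 months, whose own Apoe gene had given way to human sequence coding for ApoE3 or ApoE4. All mice received a 50 kdyne contusion, which left the cord incompletely injured. The 4 groups were ApoE3 at 7 days post injury (dpi), ApoE4 at 7 dpi, ApoE3 at 21 dpi and ApoE4 at 21 dpi, with 3 mice behind each. No uninjured or sham cord was analysed here, so a level cannot be read against its value before injury.

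The data hold 1 value per gene and group, in FPKM, a read level scaled to transcript length and library size, so no spread between mice can be given, no difference has a replicate check and no test was run. The depth behind a single gene is unknown. A gene is listed at a time point only where the deposited test could be made, so an unlisted gene is not a gene at 0. The genotype of each value was read from the name of each comparison, which puts ApoE3 first. The sample columns of the same table number the genotypes the other way round, and if those applied to the values, every direction between genotypes given here would be the opposite. The replaced gene does not settle this, because both lines carry a human coding region at the same place: APOE was listed at 21 dpi alone, at an FPKM of 843 in ApoE3 and 1311 in ApoE4.

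Complement is a cascade of plasma and tissue proteins that tags cells and debris for removal. In the classical pathway C1q binds a surface, its proteases cleave C4 and C2, and the resulting enzyme cleaves C3, whose fragments coat the target, while the alternative pathway enlarges the deposit with factor B, factor D and properdin. Small fragments of C3 and C5 act on myeloid cells through C3AR1 and C5AR1. In the central nervous system microglia and macrophages are the main makers of C1q, astrocytes make C3 and C4, and C1q and C3 are known for marking synapses and myelin debris for uptake. The liver makes most of the complement in plasma.

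The 21 dpi groups differed in more than the complement genes, and those values belong before the results. At 7 dpi the median log2 ratio of ApoE3 over ApoE4, taken on FPKM + 1 over genes averaging an FPKM of 1 or more, was 0.0018, and 49.5% of all entries lay below 0. At 21 dpi the median was -0.42 and 93.8% lay below 0, which is the side higher in ApoE4. Counts of genes at least 1.3-fold apart between genotypes at 21 dpi are therefore given as deposited and relative to that median. Sums and some single levels are given as deposited only, and their direction relative to the median can differ.

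Markers of other tissues also differed at 21 dpi. Of 14 liver genes, 10 were listed, and all 10 were at least 1.3-fold higher in ApoE4, against 58.9% of all entries as deposited. They were so relative to all genes too, against 8.07%. Their summed FPKM was 11.7 in ApoE3 and 138 in ApoE4. APOA2 was the most abundant of them, and CYP3A11 was listed at 0 in ApoE3. Of 6 skeletal muscle genes, 5 were listed and all 5 were higher in ApoE4, with sums of 26.6 and 669 led by TNNT3, and MYH4 was listed at 0 in ApoE3. Of 5 Schwann cell genes, 4 were listed and all 4 were higher in ApoE3, among them DHH at 15.8 and 0.555. Relative to all genes, all 5 muscle and all 4 Schwann cell genes were at least 1.3-fold toward those sides. The shares of all entries were 8.07% and 7.47%. At 7 dpi the liver list had 1 listed gene, TRF, which oligodendrocytes also make, and the muscle list summed to 54.9 in ApoE3 and to 36.7 in ApoE4. The part of these tissues in the complement values was not tested.

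Within each group the 9 levels kept much the same order. C4B was highest in all 4 groups, C1QC followed, then C1QA and C1QB close together, then C3 and SERPING1, and the receptor genes and CFP were lowest. In ApoE3 at 7 dpi the FPKM ran from 2721 for C4B to 25.6 for CFP, and in ApoE3 at 21 dpi from 2739 for C4B to 1.99 for C5AR1. C1QC stood at 62.3% of C4B in ApoE3 at 7 dpi and at 22.7% at 21 dpi, and in ApoE4 at 76.3% and 25.7%. The 9 genes together summed to 6733 in ApoE3 and 7909 in ApoE4 at 7 dpi, and to 4366 and 7379 at 21 dpi. C1QA and C1QB, which differed little in any group, changed places between the time points.

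**Figure D1:**
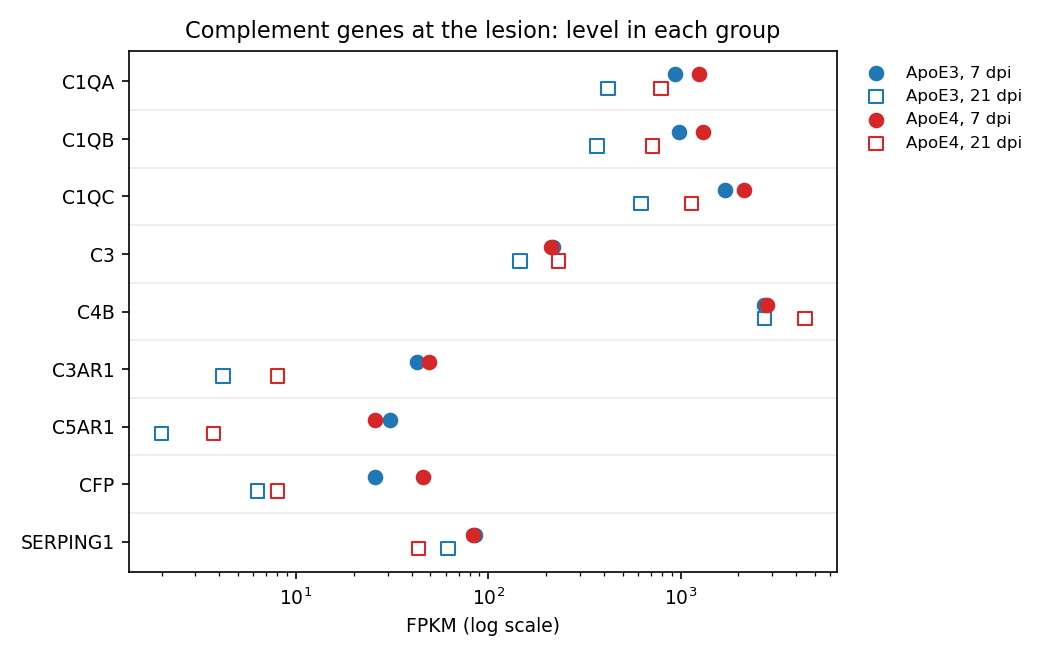
FPKM of the 9 complement genes on a log axis, 1 point for each group, filled circles at 7 dpi and open squares at 21 dpi, blue for ApoE3 and red for ApoE4. C4B and the C1q chains lie at the right in all groups, and the squares of C3AR1, C5AR1 and CFP lie far to the left of their circles.

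Between genotypes at 7 dpi, 3 of the 9 genes were at least 1.3-fold higher in ApoE4 on FPKM + 1, and none was in ApoE3. Those 3 were CFP, C1QA and C1QB. Of all 14127 entries listed at 7 dpi, 4.76% were past that fold toward ApoE4 and 3.78% toward ApoE3, and relative to the median the counts for the 9 genes were the same, with 4.82% and 3.76% of all entries. The median log2 ratio of the 9 genes was -0.21. Fewer cells of a type and less RNA per cell cannot be told apart in such tissue samples, here or in any comparison that follows.

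At 21 dpi, 7 of the 9 genes were at least 1.3-fold higher in ApoE4 as deposited, where 58.9% of 11474 entries were too, and 1, SERPING1, was higher in ApoE3, against 2.02% of all entries. Relative to the median, 4 genes were past the fold toward ApoE4, against 8.07% of all entries, namely C1QA, C1QB, C1QC and C3AR1, and SERPING1 alone was past it toward ApoE3, against 7.47%. C3AR1 lay just inside that limit, at a relative log2 ratio of -0.38, and was not past it when genes averaging an FPKM of 10 or more gave the median, and C4B was the nearest outside it, at -0.27. The median of the 9 genes was -0.70 as deposited and -0.27 relative to all genes.

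**Figure D2:**
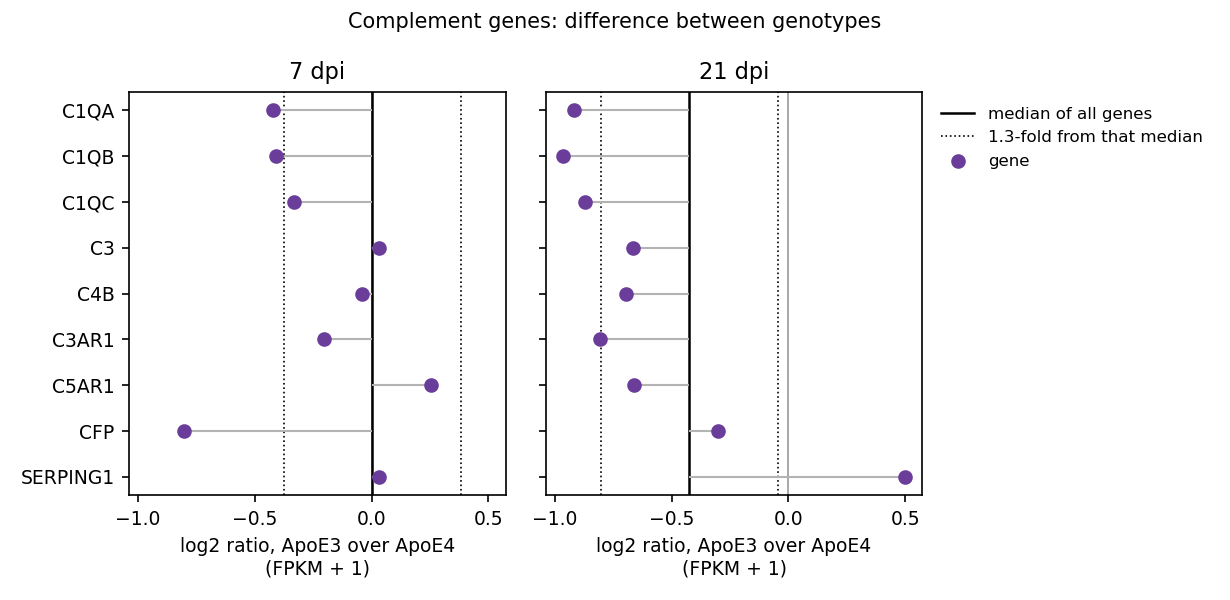
Log2 ratio of ApoE3 over ApoE4 (FPKM + 1) for each complement gene at 7 dpi (left) and 21 dpi (right), with the median of all genes as a solid line and 1.3-fold from it as dotted lines. The C1q chains lie to the left of the solid line in both panels, and SERPING1 lies at the line at 7 dpi and far to its right at 21 dpi.

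C1QA, C1QB and C1QC encode the A, B and C chains, which combine into 1 molecule, and their genes lie side by side on mouse chromosome 4. C1QA stood at an FPKM of 935 in ApoE3 and 1254 in ApoE4 at 7 dpi, and at 419 and 790 at 21 dpi. C1QB stood at 983 and 1305, then at 367 and 717. C1QC, the most abundant chain, stood at 1695 and 2136, then at 622 and 1139. In each chain ApoE4 at 7 dpi was the highest group and ApoE3 at 21 dpi the lowest.

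At 7 dpi C1QA was 1.34-fold and C1QB 1.33-fold higher in ApoE4 on FPKM + 1, and C1QC, at 1.26-fold, was just under the minimum. At 21 dpi the 3 chains were 1.89-fold, 1.95-fold and 1.83-fold higher in ApoE4, or -0.49, -0.54 and -0.45 on the log2 scale relative to all genes. The ratio of C1QA was below that of 96.6% of all listed genes at 7 dpi and of 94.9% at 21 dpi. The chains were close to each other in proportion: C1QB over C1QA was 1.05 and 1.04 in ApoE3 and ApoE4 at 7 dpi, and 0.876 and 0.907 at 21 dpi, while C1QC over C1QA went from 1.81 and 1.70 to 1.49 and 1.44. So the proportions differed more between time points than between genotypes.

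Because the C1q chains had like profiles and CFP had the largest difference at 7 dpi, their promoters are shown. RefSeq promoters (mouse build GRCm38.p6), from 250 bases before to 50 after the start of transcription, were matched by symbol for 6 of the 9 genes: C1QB, C1QC, C3, C3AR1, C5AR1 and CFP. C1QA, C4B and SERPING1 are named only. The 6 were searched on both strands for GAGGAA, a core sequence that PU.1, an ETS factor of myeloid cells, is known to bind, and for an interferon-type element, GAAA, 2 bases of any kind, then GAAA. The first was in C1QB, C1QC and CFP, and in 28.3% of 32851 promoters of the same length. The second was in none of the 6, and in 3.44% of all promoters. Capitals mark GAGGAA or its complement on the other strand, and each sequence runs 5′ to 3′ on the strand of the gene. C1QB (chr4:136886151-136886450, minus strand) had 1 match, whose first base is at -30 from the start. C1QC (chr4:136892865-136893164, minus strand) had 1 on the opposite strand, at -193. CFP (chrX:20931506-20931805, minus strand) had 2 on the opposite strand, at 7 and 23 after the start. A match is a description of the letters and not a bound site.
C1QB: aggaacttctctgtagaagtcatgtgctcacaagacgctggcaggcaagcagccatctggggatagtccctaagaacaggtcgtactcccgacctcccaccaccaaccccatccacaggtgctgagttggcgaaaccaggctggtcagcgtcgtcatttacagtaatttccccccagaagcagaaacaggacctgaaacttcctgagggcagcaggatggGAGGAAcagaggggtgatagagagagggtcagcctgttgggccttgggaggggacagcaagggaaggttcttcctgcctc
C1QC: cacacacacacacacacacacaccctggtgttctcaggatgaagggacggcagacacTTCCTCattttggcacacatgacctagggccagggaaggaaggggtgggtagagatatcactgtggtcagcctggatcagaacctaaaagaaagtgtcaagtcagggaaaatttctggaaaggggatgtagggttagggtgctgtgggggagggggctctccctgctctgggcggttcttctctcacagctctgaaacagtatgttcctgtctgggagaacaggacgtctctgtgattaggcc
CFP: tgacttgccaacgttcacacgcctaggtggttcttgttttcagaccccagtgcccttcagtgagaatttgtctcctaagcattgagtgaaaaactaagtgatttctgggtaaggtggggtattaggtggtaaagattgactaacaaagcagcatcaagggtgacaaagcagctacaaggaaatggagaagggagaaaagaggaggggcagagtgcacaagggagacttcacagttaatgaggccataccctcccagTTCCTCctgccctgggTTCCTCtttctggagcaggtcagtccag

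Myeloid markers varied beside the C1q chains. Of 12 macrophage genes, 11 were listed at 7 dpi. Of these 5 were at least 1.3-fold higher in ApoE4 and 0 in ApoE3, against 4.76% and 3.78% of all entries. They had a median log2 ratio of -0.37 and summed FPKM of 7635 in ApoE3 and 10007 in ApoE4. The most abundant was LYZ2, the lysozyme of macrophages, at 4522 and 6076. Of 10 microglia genes, 7 were listed at 7 dpi and none was past the fold. So 2 of the 3 C1q chains and 5 of the 11 macrophage genes were past the fold toward ApoE4 at 7 dpi. C1QA over LYZ2 was 0.207 in ApoE3 and 0.206 in ApoE4, and C1QA over CSF1R, the receptor that keeps both cell types alive, was 4.75 and 6.87.

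At 21 dpi, 7 macrophage genes were listed, all past the fold toward ApoE4 as deposited and 4 relative to all genes. Of all entries, 58.9% and 8.07% were past it toward ApoE4 on those scales. The macrophage genes had a relative median of -0.38 and sums of 359 in ApoE3 and 676 in ApoE4. Of the microglia genes 6 were listed, all past the fold as deposited and 1, SIGLECH, relative to all genes, with sums of 303 and 517. SIGLECH, a lectin of resident microglia, stood at 123 in ApoE3 and 237 in ApoE4. C1QA over SIGLECH was 3.41 in ApoE3 and 3.33 in ApoE4, and C1QA over LYZ2 was 1.98 and 1.86. Over CSF1R it was 5.70 and 6.77 and over TMEM119 8.95 and 10.6, so whether C1QA was higher in ApoE4 per unit of a marker depended on the marker. P2RY12 and CX3CR1, defining genes of resting microglia, were unlisted at both times. The part of these cells in the C1q values was not tested.

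The genes whose 4 values were most like those of C1q were sought among 8511 genes listed at both times and averaging an FPKM of 10 or more, by the distance between profiles of log2(FPKM + 1) after each gene's own mean was taken off. The nearest other genes were TGM1, PYCARD, CMTM3 and GM38426, and all 4 lay nearer to the mean C1q profile than C1QA itself, which ranked 17. TGM1 stood at 52.5 in ApoE3 and 74.0 in ApoE4 at 7 dpi, and at 19.8 and 40.5 at 21 dpi. PYCARD, the inflammasome adaptor, stood at 36.8 and 47.6, then 15.1 and 27.9. None of the other 6 complement genes was near: C3 ranked 1351, SERPING1 2080, CFP 2306, C4B 3875, C3AR1 5386 and C5AR1 6614. With 4 points a profile, this is a description only.

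C4B encodes the C4 protein that C1 cleaves, and C3 the protein on which all pathways meet. C4B stood at an FPKM of 2721 in ApoE3 and 2799 in ApoE4 at 7 dpi, and at 2739 and 4439 at 21 dpi. C3 stood at 216 and 211, then at 146 and 232. Both were within 1.03-fold between genotypes at 7 dpi and higher in ApoE4 at 21 dpi, C4B by 1.62-fold and C3 by 1.58-fold, and neither passed the fold relative to all genes, at -0.27 and -0.24. C4B over C3 was 12.6 and 13.3 at 7 dpi and 18.8 and 19.2 at 21 dpi, again closer between genotypes than between times.

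C4A, a near-identical copy of C4B whose reads the deposited values may share with it, stood at 444 and 443 at 7 dpi and at 519 and 852 at 21 dpi, so the separate levels of the pair are uncertain. Astrocyte genes had like differences. Of 8, 7 were listed at 7 dpi with none past the fold. At 21 dpi all 8 were listed and past it toward ApoE4 as deposited, against 58.9% of all entries. Relative to all genes 2 of them were, against 8.07%. Their sums were 17481 in ApoE3 and 17060 in ApoE4 at 7 dpi, and 14007 and 24309 at 21 dpi, and GFAP, the filament protein of reactive astrocytes, was the most abundant. C4B over GFAP was 0.219 and 0.226 at 7 dpi and 0.334 and 0.290 at 21 dpi, and the part of astrocytes in the C4B and C3 values was not tested.

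The genes around C1q and C4 in the classical pathway were low. C1S1, a C1 protease, stood at 19.2 in ApoE3 and 18.7 in ApoE4 at 7 dpi and at 13.7 and 17.2 at 21 dpi, and C1RA, the other, at 2.70 and 2.80, then 1.85 and 2.16, a value that its near copy C1RB makes uncertain. C2, which C1 cleaves with C4, was higher in ApoE3 at 21 dpi, at 2.55 against 1.498, a relative log2 ratio of 0.93, and stood at 2.21 and 1.48 at 7 dpi. Relative to all genes at 21 dpi, C1S1 and C1RA lay toward ApoE3, at log2 ratios of 0.11 and 0.27, within the fold. The chains that recognise a target were thus far more abundant per length than the protease genes they work with, in all 4 groups.

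The alternative pathway genes did not move as 1 group. CFP encodes properdin, which steadies the alternative pathway's C3 convertase and is made by leukocytes. It stood at an FPKM of 25.6 in ApoE3 and 45.5 in ApoE4 at 7 dpi, and at 6.32 and 8.03 at 21 dpi. At 7 dpi it was 1.75-fold higher in ApoE4, the largest difference among the 9 genes at that time, and its ratio was below that of 99.5% of listed genes. At 21 dpi it was 1.23-fold higher in ApoE4 as deposited and 0.12 toward ApoE3 on the log2 scale relative to all genes, so its direction depends on the scale there.

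CFB, which provides the protease of that convertase, went the other way at 7 dpi, at 10.5 in ApoE3 and 6.12 in ApoE4, and stood at 5.69 and 8.93 at 21 dpi. CFB is an interferon-responsive gene. All 12 genes of an interferon response list were at least 1.3-fold higher in ApoE3 at 7 dpi, against 3.78% of all entries. Their sums were 915 and 467, led by IFIT3. At 21 dpi, 9 of them were listed, all past the fold toward ApoE4 as deposited, against 58.9% of all entries. Relative to all genes 5 were, against 8.07%. Their sums were then 284 and 534. As deposited, CFB lay on the same side as that list at both times, and the part of an interferon response in its value was not tested. CFD, factor D, which fat cells make in quantity, was listed at 21 dpi alone, at 0 in ApoE3 and 6.27 in ApoE4, beside the liver and muscle genes that were also higher there.

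Of the receptors, C3AR1 responds to the small fragment of C3 and C5AR1 to that of C5, and both draw and activate myeloid cells. C3AR1 stood at an FPKM of 42.5 in ApoE3 and 49.1 in ApoE4 at 7 dpi, and at 4.17 and 8.03 at 21 dpi. C5AR1 stood at 30.7 and 25.6, then at 1.99 and 3.73. Between genotypes at 7 dpi they lay on opposite sides, C3AR1 1.15-fold higher in ApoE4 and C5AR1 1.19-fold higher in ApoE3, neither past the minimum fold. At 21 dpi both were higher in ApoE4, by 1.75-fold and 1.58-fold as deposited, with relative log2 ratios of -0.38 and -0.24, and each was then below an FPKM of 10.

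C5AR2, the second receptor for the C5 fragment, had the largest genotype difference of the wider complement list at 7 dpi, at 11.6 in ApoE3 and 4.03 in ApoE4, a log2 ratio of 1.32, and was unlisted at 21 dpi. Neutrophil genes, whose cells carry C5 receptors, were few: 4 of 12 were listed at 7 dpi. Of these 2 were past the fold toward ApoE3 and 1 toward ApoE4, against 3.78% and 4.76% of all entries. Their sums were 22.2 and 15.3, led by S100A9. At 21 dpi 4 were listed, 3 past the fold toward ApoE4 as deposited, against 58.9% of all entries. Relative to all genes 2 were, against 8.07%. Their sums were then 14.0 and 34.5. ITGAX, a chain of the receptor for C3 fragments on phagocytes, stood at 20.3 in ApoE3 and 33.7 in ApoE4 at 7 dpi and at 11.8 and 19.4 at 21 dpi. ITGAM, the chain of the sister receptor, stood at 48.9 and 58.3, then at 14.2 and 25.0, and passed the fold relative to all genes at neither time.

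SERPING1 was the gene that parted from the rest. It encodes the C1 inhibitor, a serpin that takes the proteases off C1. It stood at an FPKM of 85.2 in ApoE3 and 83.4 in ApoE4 at 7 dpi, and at 61.8 and 43.4 at 21 dpi. At 7 dpi the genotypes differed by 1.02-fold. At 21 dpi it was 1.41-fold higher in ApoE3 as deposited, 0.92 on the log2 scale relative to all genes, and its ratio was above that of 98.4% of listed genes.

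Fibroblast genes moved beside SERPING1 at 21 dpi. All 7 were listed, 5 of them past the fold toward ApoE3 relative to all genes and 0 toward ApoE4, against 7.47% and 8.07% of all entries. The relative median was 0.67, and the sums were 144 in ApoE3, led by DCN, and 108 in ApoE4, led by PDGFRA. As deposited, 3 were past the fold toward ApoE3 and 1 toward ApoE4, against 2.02% and 58.9%. Of those 5, all but DCN were low. COL1A2 stood at 8.41 in ApoE3 and 6.19 in ApoE4 and COL1A1 at 2.44 and 2.27. COL3A1 stood at 2.31 and 1.79 and LUM at 1.44 and 0.675. COL1A1 and COL3A1 were past the fold only relative to all genes. PDGFRA and PDGFRB, at higher levels, were within it relative to all genes, at -0.051 and 0.24. DCN, the decorin of connective tissue, stood at 61.9 and 9.37, and the direction of the sums as deposited rests on it. Without DCN, a choice made after seeing the data, the other 6 summed to 81.9 and 98.4. Their relative median was 0.59, still toward ApoE3. At 7 dpi all 7 were lower in ApoE3, 2 of them past the fold, against 4.76% of all entries. The sums were then 710 and 903, led by COL1A1. The Schwann cell genes given above were higher in ApoE3 at 21 dpi too, and the part of either in the SERPING1 value was not tested.

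Of the other regulators, VTN and CD55 lay on the same side as SERPING1 at 21 dpi. VTN, vitronectin, which blocks the membrane attack complex, stood at 57.5 in ApoE3 and 57.1 in ApoE4 and was therefore past the fold toward ApoE3 only relative to all genes, at 0.43. CD55, which breaks up C3 convertases on the cell's own membrane, stood at 48.4 and 39.6, a relative log2 ratio of 0.71. CFHR2, of the factor H family, was low and on the other side, at 0.369 and 1.40. CLU, clusterin, the most abundant regulator, stood at 2211 and 2167 at 7 dpi and at 2440 and 3975 at 21 dpi, past the fold as deposited and within it relative to all genes.

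Few lectin pathway genes were listed, 4 at 7 dpi and 3 at 21 dpi, with MASP1 and COLEC12 at both times. None was past the fold at 7 dpi. At 21 dpi all 3 were past it toward ApoE4 as deposited, against 58.9% of all entries. Relative to all genes 2 were, MASP1 and COLEC11, against 8.07%. MASP1, a protease of the lectin pathway, stood at 33.5 in ApoE3 and 25.8 in ApoE4 at 7 dpi, and at 23.9 and 44.0 at 21 dpi. COLEC11, a collectin that recognises sugars, was listed at 21 dpi alone, at 3.33 and 6.90. Of the 7 terminal pathway genes, HC, which encodes C5, was listed at 7 dpi alone, at 1.64 and 1.59, and C8G at both times, at 2.26 and 2.53, then 5.20 and 8.87.

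Over the wider complement list of 64 genes, 43 were listed at either time. At 7 dpi 41 were listed, and 2 passed the fold toward ApoE3 and 4 toward ApoE4, against 3.78% and 4.76% of all entries. At 21 dpi 33 were listed, with 2 toward ApoE3 and 23 toward ApoE4 as deposited, against 2.02% and 58.9% of all entries, and 4 and 8 relative to all genes, against 7.47% and 8.07%. Without the 9 genes, the median relative log2 ratio was 0.040 at 7 dpi and -0.061 at 21 dpi, against -0.21 and -0.27 for the 9. Both lists were chosen with earlier results of these data known, so that contrast is a description and not a test. The 4 toward ApoE3 were SERPING1, C2, CD55 and VTN. Of the 8 toward ApoE4, 4 were the C1q chains and C3AR1, and the others were MASP1, COLEC11, CFD and CFHR2.

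**Figure D3:**
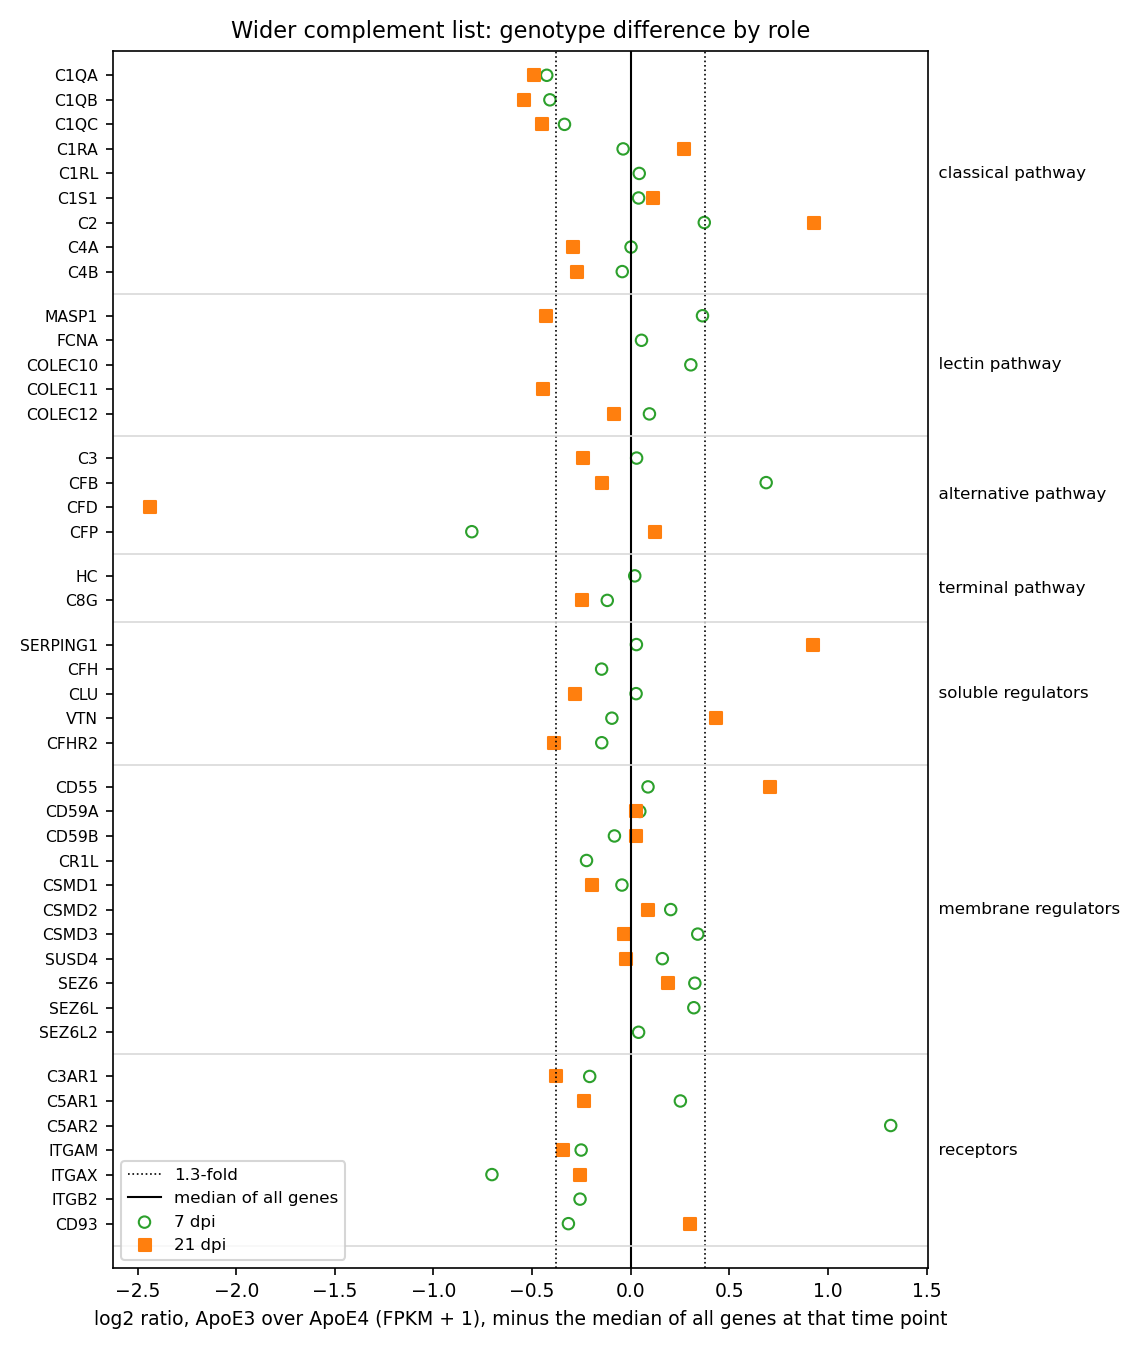
Log2 ratio of ApoE3 over ApoE4 (FPKM + 1) minus the median of all genes at that time point, for every listed gene of the wider complement list grouped by role, green circles at 7 dpi and orange squares at 21 dpi, with dotted lines at 1.3-fold. C1QA and C1QB lie past the left dotted line at both times, SERPING1, C2, CD55 and VTN lie past the right one at 21 dpi, and CFD lies far to the left because it was listed at 0 in ApoE3.

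The largest ratios of the 9 genes were between time points. The 7 and 21 dpi values may have been normalized separately, so these ratios are descriptions, given beside the median log2 ratio of 21 over 7 dpi for 10876 genes listed once at both times, 0.089 in ApoE3 and 0.53 in ApoE4. In ApoE3, 8 of the 9 genes were at least 1.3-fold lower at 21 dpi, against 23.6% of all genes, and 0 were higher, against 31.3%. In ApoE4, 7 were lower, against 10.9% of all genes, and 1, C4B, was higher, against 59%. The medians of the 9 were -1.42 and -0.91. Relative to the medians of all genes, 8 were lower and 0 higher past the fold in each genotype, against 27.7% lower and 26.6% higher over all genes in ApoE3 and 28.6% and 26.1% in ApoE4, with C4B within it, at -0.079 in ApoE3 and 0.14 in ApoE4.

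The receptor genes had the largest ratios. C5AR1 was 10.6-fold higher at 7 than at 21 dpi in ApoE3 and 5.62-fold in ApoE4, and C3AR1 was 8.40-fold and 5.55-fold higher. Relative to all genes, the log2 ratios of 21 over 7 dpi were -3.49 and -3.02 for C5AR1 and -3.16 and -3.00 for C3AR1. In ApoE3 99.8% of genes had a higher ratio of 21 over 7 dpi than C5AR1, and 99.7% than C3AR1. CFP followed, at 3.64-fold and 5.15-fold, the larger ratio being in ApoE4, where its 7 dpi level was highest.

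The C1q chains had smaller ratios than these in both genotypes. C1QA was 2.23-fold higher at 7 dpi in ApoE3 and 1.59-fold in ApoE4, C1QB 2.68-fold and 1.82-fold, and C1QC 2.72-fold and 1.88-fold. Relative to all genes the genotypes were closer. The log2 ratios of 21 over 7 dpi were then -1.25 and -1.19 for C1QA, -1.51 and -1.39 for C1QB, and -1.53 and -1.43 for C1QC. C3 was 1.48-fold higher at 7 dpi in ApoE3. In ApoE4 it stood at 211 and 232, a log2 ratio of 21 over 7 dpi of 0.13 as deposited and -0.39 relative to all genes, so its direction depends on the scale. C4B was at 2721 and 2739 in ApoE3 and 1.59-fold higher at 21 dpi in ApoE4. SERPING1 was 1.37-fold higher at 7 dpi in ApoE3 and 1.90-fold in ApoE4. SERPING1 and CFP were thus the 2 genes of the 9 whose ratio of 7 over 21 dpi was larger in ApoE4. Fibroblast genes, given above beside SERPING1, had median log2 ratios of 21 over 7 dpi of -2.02 in ApoE3 and -3.07 in ApoE4. In ApoE3, 6 of the 7 were past the fold lower and DCN was past it higher, against 23.6% and 31.3% of all genes. In ApoE4 all 7 were past it lower, against 10.9%. Their part in the SERPING1 ratios was not tested.

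**Figure D4:**
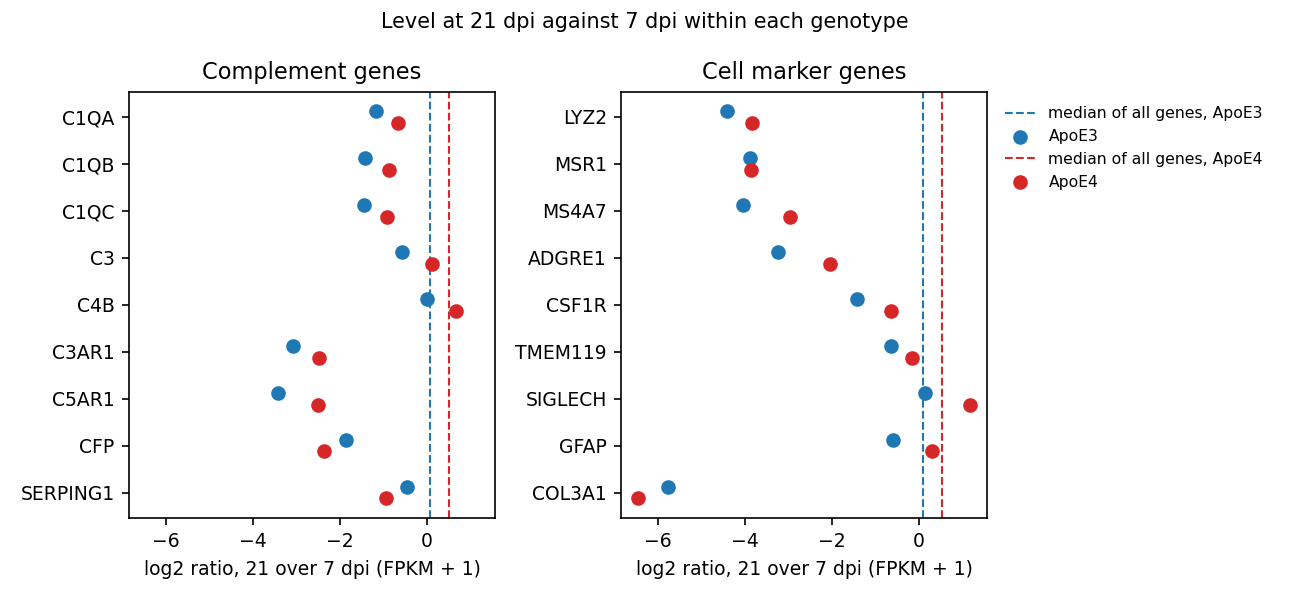
Log2 ratio of 21 over 7 dpi (FPKM + 1) within ApoE3 (blue) and ApoE4 (red) for the 9 complement genes (left) and for marker genes of macrophages, microglia, astrocytes and fibroblasts (right), with the median of all genes in each genotype as a dashed line. C3AR1, C5AR1 and CFP lie toward the macrophage genes LYZ2, MSR1, MS4A7 and ADGRE1, and C3 lies near GFAP.

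Macrophage genes were far lower at 21 dpi in both genotypes. All 7 listed at both times were past the fold, against 23.6% of all genes in ApoE3 and 10.9% in ApoE4. The macrophage medians were -3.88 in ApoE3 and -2.97 in ApoE4, and LYZ2 was 21.3-fold and 14.2-fold higher at 7 dpi. Of 5 microglia genes listed at both times, 4 were past the fold lower at 21 dpi in ApoE3 and none higher, and in ApoE4 2 were lower and 1, SIGLECH, was higher, at a log2 ratio of 1.19. The medians were -0.63 and -0.16. C1QA over LYZ2 went from 0.207 to 1.98 in ApoE3 and from 0.206 to 1.86 in ApoE4, while C1QA over TMEM119, a microglia gene, went from 12.8 to 8.95 and from 15.0 to 10.6. C1QA over SIGLECH went from 8.37 to 3.41 and from 12.1 to 3.33, and C1QA over CSF1R from 4.75 to 5.70 and from 6.87 to 6.77. Of these 3 microglia genes, C1QA was thus lower per unit of each at 21 dpi in ApoE4, though by little for CSF1R. In ApoE3 it was lower per unit of TMEM119 and SIGLECH but not of CSF1R. OLFML3, also listed at both times, went the other way, being 3.13-fold and 2.05-fold higher at 7 dpi. Those folds were larger than the 2.23-fold and 1.59-fold of C1QA. SALL1 was 1.33-fold higher at 7 dpi in ApoE3 and 1.14-fold higher at 21 dpi in ApoE4, so the direction depended on the marker. C3 over C3AR1 went from 5.08 to 35.0 and from 4.30 to 28.8. The part of each cell type was not tested.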

How the data were processed

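RNA from the lesion segment was sequenced in 4 groups, and the authors down-sampled the libraries to a common read number, reported 1 replicate with a lower alignment rate, and made the deposited table with Cuffdiff 1.3.0. STAR 2.5.4b, Bowtie2 2.1.10 and SAMtools 0.1.7 are also named in the submitters' processing notes. The genome build and annotation are not given in the sources used here. The deposited values are FPKM with 1 added, pooled over the mice of a group, for genes whose test could be made, and 1 was subtracted here. Columns of the authors' own fold changes and p-values, and a list of the genes they called, were not used. Log2 ratios used a pseudocount of 1, which understates the differences of low genes, and folds are on that scale. The median centring used genes averaging an FPKM of 1 or more. A gene counted as past the fold at 1.3-fold. The named genes are the 9 and every gene of the wider list past that fold relative to all genes with an FPKM of at least 1 in the higher group, with others of the lists as examples. Some genes are not reported here. The members and lists were chosen with earlier results of these data known. The code was tested on simulated data, in Python 3.11.15 with numpy 2.4.6, pandas 2.3.3 and matplotlib 3.10.9. Alternatives were a pseudocount of 0.1, a minimum fold of 1.5, a filter on low genes at the same level, and other centring.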

Additional observations from a re-analysis of the deposited data

Results flagged for a closer look

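For 3 of the 31 genes of the wider complement list that were listed at both times, the genotypes lay on opposite sides at the 2 time points, both as deposited and relative to all genes, with at least 1 time past 1.3-fold relative to all genes. That is 9.68% of them, and 8.01% of the 10876 genes listed once at both times met the same conditions, so the count is near that of all genes. The difference between time points was not tested, since each group has 1 value. MASP1 had a relative log2 ratio of ApoE3 over ApoE4 of 0.36 at 7 dpi and -0.43 at 21 dpi. CFB had 0.69 and -0.15. VTN had -0.095 and 0.43. None of the 9 complement genes met these conditions.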

How the results depend on the processing

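A minimum fold of 1.5 in place of 1.3 changed 5 counts of the 9 genes, by its own construction: higher in ApoE4 at 7 dpi went from 3 to 1 as deposited and from 3 to 1 relative to all genes, higher in ApoE3 at 21 dpi as deposited from 1 to 0, and higher in ApoE4 at 21 dpi relative to all genes from 4 to 0, and lower at 21 dpi in ApoE3 from 8 to 6. All 10 counts were within 1.5 times under a pseudocount of 0.1 and under a filter at a mean FPKM of at least 1, as were those run with other centring, 4 between genotypes and 2 between times. The count of 4 relative to all genes toward ApoE4 at 21 dpi was 5 with the pseudocount of 0.1, C5AR1 being added, and 3 when genes averaging an FPKM of 10 or more gave the median, C3AR1 being lost. The count lower at 21 dpi in ApoE4 went from 7 to 8 on centring. Centring turned the sign of 3 ratios that were within the fold as deposited: C3 between times in ApoE4, from 0.13 to -0.39, C4B between times in ApoE3, from 0.0097 to -0.079, and CFP between genotypes at 21 dpi, from -0.30 to 0.12. The pseudocount of 0.1 moved C5AR1 most, by 0.21 between genotypes at 21 dpi and by 0.47 between times in ApoE3, where its FPKM was 1.99. Without counts, the precision at such levels is unknown. No paired analysis was possible because each group has 1 value per gene.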

Other observations

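Membrane regulators of the neural sushi-domain families were among the listed complement genes. SUSD4 stood at an FPKM of 165 in ApoE3 and 148 in ApoE4 at 7 dpi, and at 282 and 386 at 21 dpi, and SEZ6 at 75.4 and 59.9, then 126 and 149. CSMD1, which resembles complement regulators in its domains, stood at 10.9 and 11.3, then 12.1 and 19.1, CSMD2 at 29.95 and 25.9, then 33.7 and 42.9, and CSMD3 at 34.9 and 27.3, then 32.6 and 45.2. Relative to all genes at 21 dpi, SEZ6 and CSMD2 lay toward ApoE3, at log2 ratios of 0.19 and 0.087. SUSD4, CSMD1 and CSMD3 lay toward ApoE4, at -0.025, -0.19 and -0.035. The CSMD genes were within 1.3-fold between times in ApoE3, and in ApoE4 relative to all genes. Of 13 membrane regulators, CD55 and the CD59 genes included, 8 were listed at both times. None was past 1.3-fold lower at 21 dpi in either genotype. As deposited, 4 in ApoE3 and 7 in ApoE4 were past it higher, against 31.3% and 59% of all genes, and relative to the medians 4 and 4, against 26.6% and 26.1%. Neuron genes varied beside them: of 8, 6 were listed at both times, with 5 past the fold higher at 21 dpi in ApoE3 and 6 in ApoE4, as deposited and relative to the medians. All 8 neuron genes were higher in ApoE3 at 7 dpi, 1 of them past the fold, with sums of 5635 and 4435. At 21 dpi, with sums of 7854 and 11594, 4 of 6 were past it toward ApoE4 as deposited, against 58.9% of all entries. Relative to all genes 1 neuron gene was, against 8.07%. Their part in the regulators' values was not tested.

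Other lists of cells gave the following. Of 7 oligodendrocyte genes, 4 were listed at 7 dpi with none past the fold. At 21 dpi 6 were listed, all past it toward ApoE4 as deposited, against 58.9% of all entries. Relative to all genes 0 were, against 8.07%. Of 6 endothelial genes, none was past it at 7 dpi, and 5 were listed at 21 dpi. As deposited 1 was past it toward ApoE4, against 58.9%, and relative to all genes 1 toward ApoE3, against 7.47%. Of 7 T and B cell genes, 0 were listed at 7 dpi and CD3G alone at 21 dpi, at 0.468 and 1.302. CD93, a C1q-binding receptor of myeloid and endothelial cells, stood at 18.3 and 23.0 at 7 dpi and at 1.92 and 2.19 at 21 dpi. Relative to all genes, CD93 lay toward ApoE3 at 21 dpi, at a log2 ratio of 0.30.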
